A study of Arabidopsis thaliana with 4 samples.

Results

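The zinc finger genes described here are STZ (also named ZAT10), ZAT5, ZAT6, ZAT7, ZAT11, ZAT12, ZAT18, AZF1, AZF2 and AZF3 of Arabidopsis thaliana. They were chosen by locus as the stress zinc fingers of the STZ, ZAT and AZF group, in the same order AT1G27730, AT2G28200, AT5G04340, AT3G46090, AT2G37430, AT5G59820, AT3G53600, AT5G67450, AT3G19580 and AT5G43170, and the reads of each locus were summed over its transcript models. They are 10 of the 23425 genes with a read in at least 1 of the 4 root libraries. All 10 had reads, 9 of them in every library, and 8 had at least 20 reads in every library.

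The study asked how auxin signalling through ARF7, an auxin response transcription factor, acts in roots during lateral root development. RNA of the roots of 8-day-old seedlings, which the labels say were grown in the dark on half-strength MS medium, was sequenced in 4 libraries, 1 per condition. The methods of the paper instead describe greenhouse growth with a daily light period, so the light conditions of these seedlings are uncertain. The arf7-NAA and arf7-Mock libraries came from an arf7 T-DNA insertion mutant, and the WT-NAA and WT-Mock libraries from wild type Col. NAA is naphthalene acetic acid, a synthetic auxin, given at 10 µM for 4 hours according to the methods, and Mock seedlings were not treated. The labels name no allele for arf7 and no number of pooled seedlings. With 1 library per condition, each test below compares the reads of 2 libraries and not the conditions, and the spread between plants or cultures is unknown.

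The library totals, to the nearest 1000, were 7027000 reads in arf7-NAA, 7230000 in arf7-Mock, 7416000 in WT-NAA and 7571000 in WT-Mock. The mutated gene itself, ARF7, had only 3 reads in arf7-NAA, 8 in arf7-Mock, 12 in WT-NAA and 6 in WT-Mock, too few to check the genotype labels. Reads were counted where unique to a transcript model, so genes with overlapping models can lose reads and the true level of ARF7 is uncertain. Root markers took between 19933 and 22973 RPM (reads per 1000000 reads) in every library, nearly all of them from PYK10, with 159098 reads in arf7-NAA, 163595 in arf7-Mock, 144675 in WT-NAA and 161015 in WT-Mock. Of the 5 other root markers, AT3G11550, which encodes a Casparian strip protein, had 675 reads in arf7-NAA, 706 in arf7-Mock, 1266 in WT-NAA and 683 in WT-Mock. Its NAA response was lower in arf7 by 0.94 on the log2 scale (adjusted p = 6.9e-18 by an exact test described below), and its part in the results was not tested. Shoot markers, 5 genes of photosynthesis of which all had reads, summed to 915 reads in arf7-NAA, 224 in arf7-Mock, 462 in WT-NAA and 595 in WT-Mock. Seed markers summed to 38 reads in arf7-NAA, 2 in arf7-Mock, 1 in WT-NAA and 1 in WT-Mock, and 3 of the 9 seed genes, the cruciferins, had no read anywhere. The arf7-NAA library was therefore the highest of the 4 in both lists of markers from other organs.

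These genes encode small proteins with a pair of C2H2 zinc fingers, in which 2 cysteines and 2 histidines hold a zinc ion, and most of them carry an EAR motif. The EAR motif recruits corepressors of the TOPLESS family, so the proteins mainly repress transcription. They are known as a fast layer of the plant stress response, since their mRNAs are short-lived and accumulate within minutes to hours of salt, cold, wounding, touch, high light or oxidative stress. Members are also tied to root growth and hormones: ZAT6 to phosphate starvation and root architecture, and AZF1 and AZF2 to the repression of abscisic acid-repressed and auxin-induced genes.

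STZ, ZAT6, ZAT12 and ZAT11 carried the differences between the libraries, and the 300 bases upstream of their annotated starts are therefore shown. The bases were read from the TAIR10.1 genome with the RefSeq gene annotation and are written 5′ to 3′ on the strand of the gene. Capitals mark matches on either strand to the auxin response element TGTCTC, the W-box core TTGAC bound by WRKY factors, the rapid stress response element CGCGTT, the G-box CACGTG and the heat shock element GAANNTTC.
STZ, chr1:9649324-9649623, minus strand: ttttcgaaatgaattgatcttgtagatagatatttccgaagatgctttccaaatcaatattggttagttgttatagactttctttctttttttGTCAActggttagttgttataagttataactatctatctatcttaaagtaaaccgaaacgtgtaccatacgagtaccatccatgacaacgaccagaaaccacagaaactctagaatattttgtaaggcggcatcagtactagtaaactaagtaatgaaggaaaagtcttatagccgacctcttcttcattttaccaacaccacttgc
ZAT6, chr5:1217363-1217662, minus strand: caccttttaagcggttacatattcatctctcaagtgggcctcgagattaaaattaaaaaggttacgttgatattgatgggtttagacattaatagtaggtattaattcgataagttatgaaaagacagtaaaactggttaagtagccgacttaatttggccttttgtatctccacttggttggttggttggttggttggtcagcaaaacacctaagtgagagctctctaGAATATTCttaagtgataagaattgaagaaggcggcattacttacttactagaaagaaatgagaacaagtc
ZAT12, chr5:24102514-24102813, plus strand: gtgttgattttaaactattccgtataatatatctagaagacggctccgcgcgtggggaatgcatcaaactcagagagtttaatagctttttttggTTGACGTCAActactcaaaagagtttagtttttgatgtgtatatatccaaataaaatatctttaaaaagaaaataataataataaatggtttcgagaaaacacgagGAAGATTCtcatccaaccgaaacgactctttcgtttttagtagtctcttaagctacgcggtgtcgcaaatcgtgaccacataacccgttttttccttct
ZAT11, chr2:15705985-15706284, plus strand: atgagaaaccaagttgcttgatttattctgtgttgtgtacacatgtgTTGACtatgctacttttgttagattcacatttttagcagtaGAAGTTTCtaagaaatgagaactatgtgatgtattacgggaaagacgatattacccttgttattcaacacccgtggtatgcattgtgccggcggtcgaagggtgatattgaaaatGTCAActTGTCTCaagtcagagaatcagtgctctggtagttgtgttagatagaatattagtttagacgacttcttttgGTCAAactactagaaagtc

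TGTCTC was found in 1 of the 10 windows, that of ZAT11, and in 13% of the 27437 windows of the same length. The shorter core TGTC, which is not capitalised on its own, was in 7 of the 10 windows and in 80.8% of all windows. TTGAC was in 8 of the 10 windows and in 50.4% of all windows, and the ZAT12 window held a TTGAC copy on each strand side by side. A TTGAC match overlapped a TGTC match in the windows of STZ, ZAT11, ZAT18 and AZF2. GAANNTTC was in the windows of ZAT6, ZAT7, ZAT11 and ZAT12, against 11.5% of all windows. No window of the 10 held CGCGTT or CACGTG, which were in 3.08% and 7.09% of all windows. A match is a description of these letters and not a binding site.

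The levels of the genes fell into 3 tiers, compared per length as RPKM, the RPM divided by the transcript length in kilobases. STZ, ZAT6 and ZAT12 were abundant, with means over the 4 libraries of 242, 149 and 135 RPKM, and ranked 459, 851 and 953 among the 23425 genes. ZAT5, ZAT11, AZF1, AZF2 and AZF3 were moderate, with means between 6.79 and 23.7 RPKM. ZAT7 and ZAT18 had means of 0.642 and 0.651 RPKM, from 0 to 6 reads a library. The 3 abundant genes took 80.5% of the reads of the 10 genes in arf7-NAA, 87.7% in arf7-Mock, 89.9% in WT-NAA and 85.9% in WT-Mock.

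**Figure D1:**
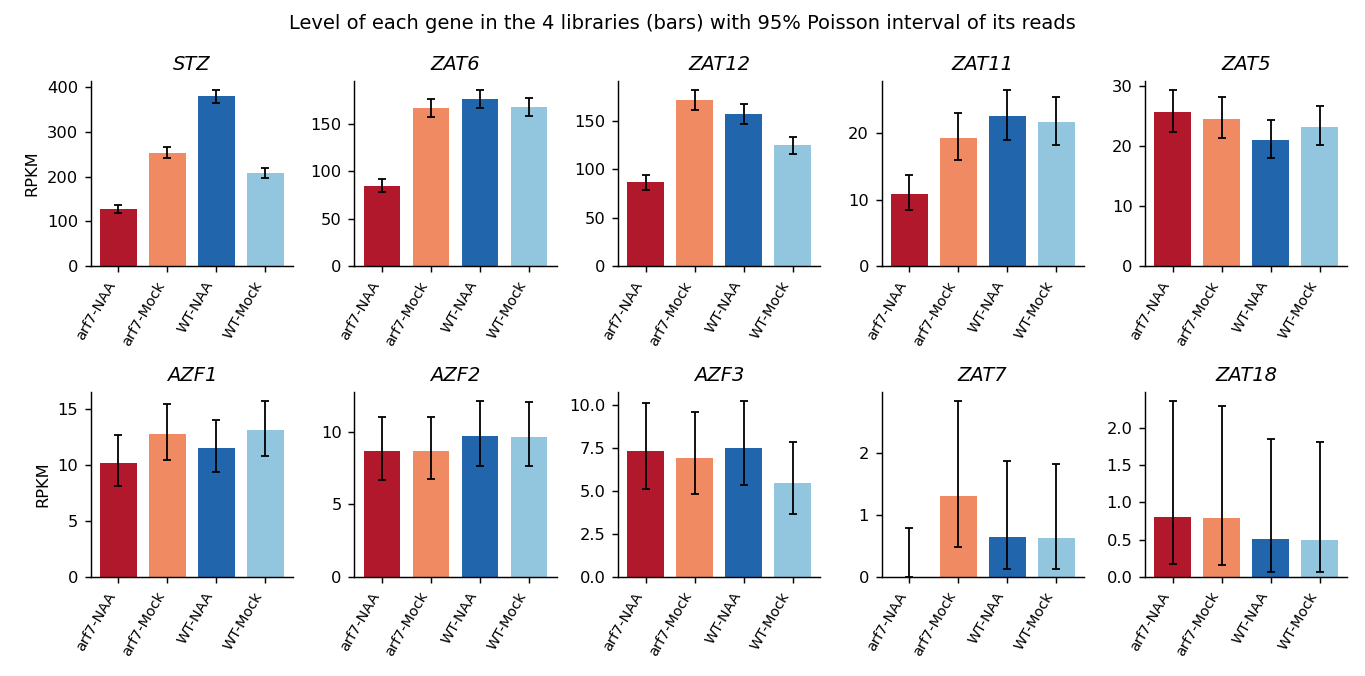
RPKM of each of the 10 genes (y axis, its own scale in each panel) in the 4 libraries (x axis), with the 95% Poisson interval of the reads as error bars, which covers counting error only. STZ, ZAT6, ZAT12 and ZAT11 have their lowest bar in arf7-NAA, STZ has its highest bar, 380 RPKM, in WT-NAA, and the intervals of ZAT5, AZF1, AZF2 and AZF3 overlap among all 4 libraries.

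STZ, a salt- and cold-induced repressor also known for its part in the response to high light, had 835 reads (127 RPKM) in arf7-NAA, 1711 (254 RPKM) in arf7-Mock, 2627 (380 RPKM) in WT-NAA and 1473 (209 RPKM) in WT-Mock. The 4 libraries were in the order arf7-NAA, WT-Mock, arf7-Mock and WT-NAA from low to high, and no 2 Poisson intervals overlapped. The reads covered between 97.6% and 97.9% of the transcript.

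ZAT12, best known from the response to oxidative stress and high light, had 496 reads (86.5 RPKM) in arf7-NAA, 1009 (171 RPKM) in arf7-Mock, 949 (157 RPKM) in WT-NAA and 770 (125 RPKM) in WT-Mock. It was lowest in arf7-NAA, as was STZ, but highest in arf7-Mock, whose interval overlapped that of WT-NAA.

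ZAT6 had 582 reads (84.9 RPKM) in arf7-NAA, 1176 (167 RPKM) in arf7-Mock, 1274 (176 RPKM) in WT-NAA and 1238 (168 RPKM) in WT-Mock. The other 3 libraries were thus at one level within their intervals, and arf7-NAA stood below them. ZAT11, known for its part in nickel tolerance and primary root growth, was lower in arf7-NAA too, at a lower level, with 66 reads (10.8 RPKM) in arf7-NAA, 121 (19.3 RPKM) in arf7-Mock, 145 (22.5 RPKM) in WT-NAA and 142 (21.6 RPKM) in WT-Mock. Its intervals in the 3 other libraries overlapped.

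ZAT5 had 209 reads in arf7-NAA, 206 in arf7-Mock, 181 in WT-NAA and 204 in WT-Mock, or between 21.1 and 25.7 RPKM. AZF1, induced by salt and abscisic acid, had 83 reads in arf7-NAA, 107 in arf7-Mock, 99 in WT-NAA and 115 in WT-Mock. AZF2, a repressor of growth under osmotic stress, had 65 reads in arf7-NAA, 67 in arf7-Mock, 77 in WT-NAA and 78 in WT-Mock. All 3 were flat across the libraries within counting error.

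Of the reads of AZF2, nearly all were assigned to its first model, with 62 reads in arf7-NAA, 63 in arf7-Mock, 73 in WT-NAA and 77 in WT-Mock. They covered no more than 24.8% of that model in any library, while those of AZF1 covered at least 76.7% of its model. The 2 models of AZF2 overlap and reads were counted where they were unique to a model, so its level, its tier and the split between the models are uncertain. AZF3 had 36 reads in arf7-NAA, 35 in arf7-Mock, 39 in WT-NAA and 29 in WT-Mock. ZAT7, a gene of salt tolerance, had 0 reads in arf7-NAA, 6 in arf7-Mock, 3 in WT-NAA and 3 in WT-Mock. Its 0 allows up to 3 reads, so no ratio is given for it. ZAT18 had 3 reads in arf7-NAA, 3 in arf7-Mock, 2 in WT-NAA and 2 in WT-Mock, too few for a comparison.

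Together the 10 genes took 338 RPM in arf7-NAA, 614 in arf7-Mock, 728 in WT-NAA and 535 in WT-Mock. The sum follows the 3 abundant genes, and STZ alone made up 48.7% of it in WT-NAA.

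Wild type roots with and without NAA were compared as WT-NAA against WT-Mock, with 1 library each. A gene counted as differentially expressed where its exact binomial P was under 0.0001 and its log2 ratio reached 1 in size, and is then said to be called. None of the 10 was called, where 1.09% of the 22469 genes tested were. STZ was 1.82-fold higher in WT-NAA, a log2 ratio of 0.86 (exact 95% interval 0.77 to 0.96) with an exact binomial P of 7.8e-79, and so missed the fold threshold only. ZAT12 was 1.26-fold higher, a log2 ratio of 0.33 (0.19 to 0.47) with an exact binomial P of 2.2e-06. These 2 of the 10 genes had P under 0.0001 on the higher side, as had 3.1% of all genes tested. The other 8 had an unadjusted P over 0.05, with ZAT6 at a log2 ratio of 0.07 (-0.04 to 0.19) and ZAT11 at 0.06 (-0.28 to 0.40).

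In arf7 the same treatment went with lower levels of 4 of the genes. In arf7-NAA against arf7-Mock, STZ had a log2 ratio of -0.99 (-1.11 to -0.87), ZAT12 of -0.98 (-1.14 to -0.83) and ZAT6 of -0.97 (-1.12 to -0.83). All 3 had an exact binomial P under 0.0001, as had 2.58% of all genes tested on the lower side, and all 3 lay just short of the fold threshold. ZAT11 had a log2 ratio of -0.83 (-1.29 to -0.39) with an exact binomial P of 1.3e-04, short of both thresholds. No gene of the 10 was therefore called, against 0.776% of all genes tested. The remaining genes gave ratios of 0.06 for ZAT5 (-0.22 to 0.35), -0.33 for AZF1 (-0.76 to 0.10), -0.0025 for AZF2 (-0.52 to 0.51) and 0.08 for AZF3 (-0.63 to 0.80), and the interval of each includes 0. ZAT7, with 0 reads in arf7-NAA against 6 in arf7-Mock, had an unadjusted exact binomial P of 0.0313 and an adjusted one of 0.207.

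Without NAA, arf7 and wild type were compared as arf7-Mock against WT-Mock, with 1 library each. None of the 10 was called, against 1.04% of all genes tested. ZAT12 was 1.37-fold higher in arf7-Mock, a log2 ratio of 0.46 (0.32 to 0.59) with an exact binomial P of 3.4e-11, and STZ was 1.22-fold higher, a log2 ratio of 0.28 (0.18 to 0.38) with an exact binomial P of 3.5e-08. These 2 had P under 0.0001 on the higher side, as had 3.4% of all genes. With an assumed coefficient of variation of 0.2 between biological replicates, edgeR's exact test gave unadjusted p-values of 0.27 for ZAT12 and 0.50 for STZ. ZAT6, at a log2 ratio of -0.01 (-0.12 to 0.11), and the other genes had P over 0.05.

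Under NAA, arf7-NAA against WT-NAA, 3 of the 10 genes were called lower, where 0.805% of the 22489 genes tested were and 1.4% were called in either direction. STZ was 2.98-fold lower in arf7-NAA, a log2 ratio of -1.58 (-1.69 to -1.46) with an exact binomial P of 3.4e-193. ZAT11 was 2.08-fold lower, with a log2 ratio of -1.06 (-1.50 to -0.63) and an exact binomial P of 3.9e-07. ZAT6 was 2.07-fold lower, with a log2 ratio of -1.05 (-1.20 to -0.91) and an exact binomial P of 2.0e-51. ZAT12 was 1.81-fold lower, with a log2 ratio of -0.86 (-1.02 to -0.70) and an exact binomial P of 4.0e-28, and missed the fold threshold. With ZAT12, 4 of the 10 had P under 0.0001 on the lower side, against 3.32% of all genes. ZAT5 had a log2 ratio of 0.29 (-0.01 to 0.58, exact binomial P of 0.054), and AZF1, AZF2 and AZF3 had ratios between -0.18 and -0.04.

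The calls of ZAT6 and ZAT11 lie close to the fold threshold, and adding 1 RPKM to each value brought ZAT11 to -0.99 and ended its call. If biological replicates were assumed to vary with a coefficient of 0.2, edgeR's exact test gave unadjusted p-values of 2.0e-04 for STZ, 0.0125 for ZAT6 and 0.0255 for ZAT11, and no gene of the 10 was called. Shoot and seed marker reads were highest in arf7-NAA, the library in which these genes were lowest, and their part in the result was not tested.

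**Figure D2:**
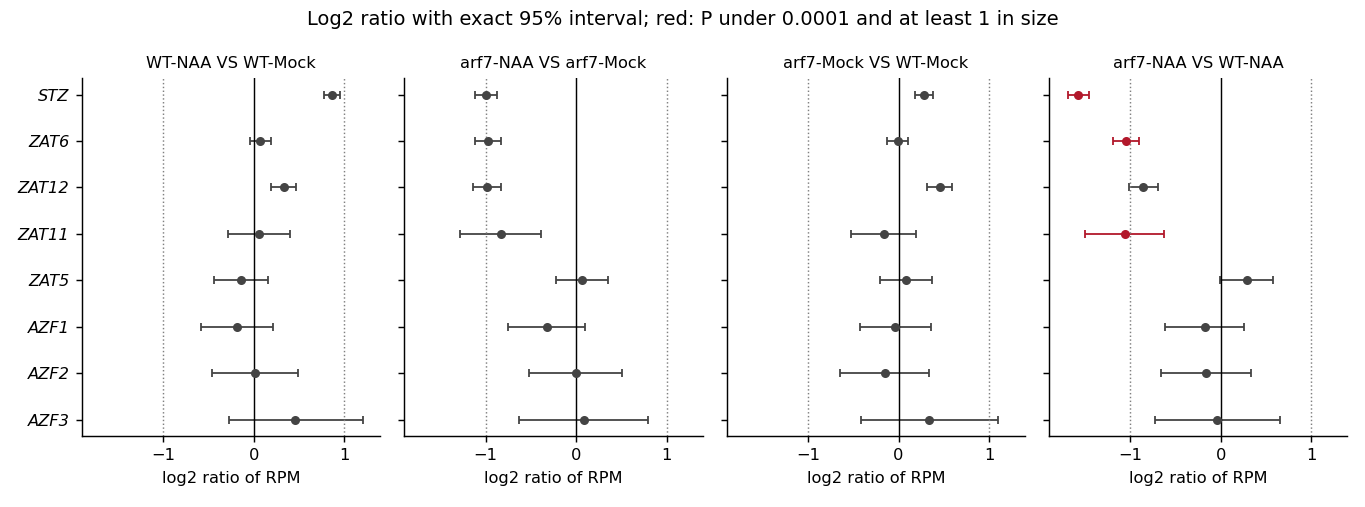
Log2 ratio of RPM (x axis) for the 8 genes with at least 20 reads in every library (y axis) in the 4 comparisons, with exact 95% intervals. Dotted lines mark ratios of 1 and -1, and red marks the 3 calls, which are STZ, ZAT6 and ZAT11 in arf7-NAA VS WT-NAA.

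The 2 NAA responses rest on different libraries, so their difference could be tested for each gene with an exact conditional test, adjusted by Benjamini-Hochberg over the 19817 genes with reads in all 4 libraries. The response was lower in arf7 for 4 of the 9 genes tested and higher for none, where 9.81% of all genes differed and 5.01% were lower. STZ had a difference, arf7 minus WT, of -1.86 on the log2 scale (-2.01 to -1.71, adjusted p = 5.5e-133 by the exact test). The difference was -1.31 for ZAT12 (-1.53 to -1.10, adjusted p = 4.1e-34 by the exact test) and -1.04 for ZAT6 (-1.23 to -0.86, adjusted p = 1.3e-27 by the exact test). ZAT11 had a difference of -0.89 (-1.47 to -0.32, adjusted p = 0.0175 by the exact test). For STZ and ZAT12, NAA went with a lower level in arf7 and a higher one in WT, and for ZAT6 and ZAT11 the 2 WT libraries did not differ beyond counting error and arf7-NAA was low.

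The differences were 0.20 for ZAT5 (-0.21 to 0.62), -0.14 for AZF1 (-0.73 to 0.46), -0.01 for AZF2 (-0.72 to 0.69) and -0.38 for AZF3 (-1.42 to 0.67). A difference as large as that of STZ lies outside each of these intervals, but one as large as that of ZAT6 lies inside that of AZF3. With the same assumed spread of 0.2 in edgeR's likelihood ratio test, a setting added after seeing the data, no response differed, and the adjusted p of STZ was 0.447.

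**Figure D3:**
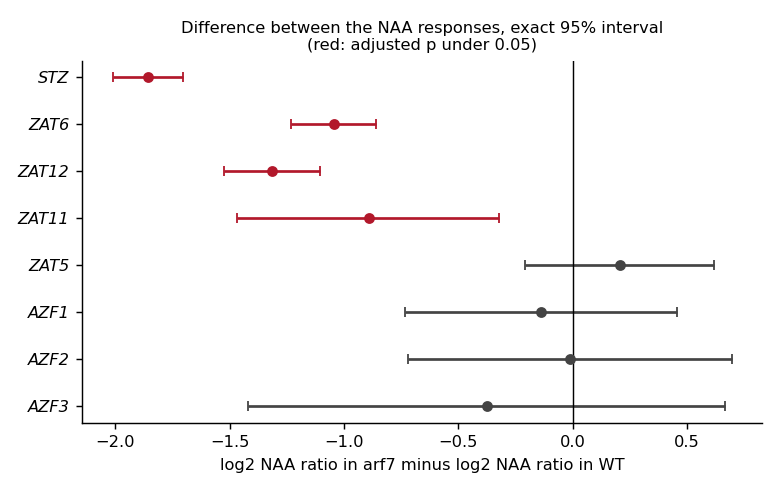
Difference between the log2 NAA ratio in arf7 and that in WT (x axis) for the 8 genes with at least 20 reads in every library (y axis), with exact 95% intervals. STZ lies farthest from 0 at -1.86, and the intervals of ZAT5, AZF1, AZF2 and AZF3 include 0.

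Other genes of the same physiology were described from lists that were drawn up with earlier results of these data known, by their counts and medians and with no test of a list. The 30 genes of the rapid stress list have transcripts that accumulate quickly after touch, wounding or elicitors, and 29 had reads. They include transcription factors, calcium sensors, ubiquitin ligases, mRNA deadenylases, the carrier DIC2, the cell wall enzyme gene TCH4 and the kinase MKK9. In WT-NAA against WT-Mock, 7 of them were called higher, against 0.418% of all genes. Their median on the log2(RPKM + 1) scale was 0.57, that of the 10 zinc finger genes 0.04 and that of all genes -0.01. The called genes with the most reads were the mitochondrial carrier DIC2, with 1847 reads in WT-NAA against 660 in WT-Mock, and the ethylene response factor ERF105, with 1489 reads in WT-NAA against 722 in WT-Mock. The deadenylase CAF1a had 1277 reads in WT-NAA against 436 in WT-Mock, and its relative CAF1b had 396 reads in WT-NAA against 199 in WT-Mock.

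In arf7-NAA against arf7-Mock, 7 of the rapid stress genes were called lower, against 0.386% of all genes, and the median was -0.66, beside -0.54 for the zinc finger genes. The -0.54 is the value of no member, since it falls between ZAT11 at -0.78 and AZF1 at -0.30 on the log2(RPKM + 1) scale. It also takes in ZAT7, with 0 reads in arf7-NAA against 6 in arf7-Mock. The called rapid stress genes with the most reads were ERF105, with 403 reads in arf7-NAA against 867 in arf7-Mock, and the cell wall enzyme gene TCH4, with 380 reads in arf7-NAA against 838 in arf7-Mock. The transcription factor WRKY40 had 152 reads in arf7-NAA against 491 in arf7-Mock, and the calmodulin-like CML37 had 55 reads in arf7-NAA against 158 in arf7-Mock. In arf7-Mock against WT-Mock 2 were called higher, against 0.466% of all genes. They were the AP2/ERF factors RRTF1, with 175 reads in arf7-Mock and 61 in WT-Mock, and ORA47, with 63 reads in arf7-Mock and 26 in WT-Mock.

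In arf7-NAA against WT-NAA, 13 of the 29 were called lower, against 0.805% of all genes, among them DIC2, with 539 reads in arf7-NAA and 1847 in WT-NAA, and ERF105, with 403 reads in arf7-NAA and 1489 in WT-NAA. The zinc finger gene SZF1 of the CCCH class had 1011 reads in arf7-NAA and 2391 in WT-NAA, and ERF6 had 395 reads in arf7-NAA and 929 in WT-NAA. The median of the list was -0.90, that of the zinc finger genes -0.44 and that of all genes 0.01. On the scale of log2 ratios of reads, with the 0 of ZAT7 set to 3, the median of the zinc finger genes was -0.17 and that of all genes 0.02, so their median depends on how ZAT7 enters it. The NAA response was lower in arf7 for 22 of the 29, against 5.01% of all genes, with a median difference of -1.16 beside 0.0087 for all genes. That count allows for counting error only. With an assumed spread between replicates in edgeR's likelihood ratio test, 36 of all 19817 genes tested differed in response at 0.2 and 0 at 0.4. The 2 genes of the list with the highest mean RPKM differed. ERF104 had 1662 reads in arf7-NAA, 2289 in arf7-Mock, 3278 in WT-NAA and 2487 in WT-Mock, a response difference of -0.85 with an adjusted p of 5.4e-43 by the exact test. WRKY33 had 1621 reads in arf7-NAA, 2651 in arf7-Mock, 2361 in WT-NAA and 3869 in WT-Mock, and its difference was 0.01 with an adjusted p of 1 by the exact test. With an assumed spread of 0.2 between replicates, edgeR's exact test kept 5 of the 13 calls (RRTF1, ORA47, CAF1a, DIC2 and ERF105), 2 of the 7 in WT (RRTF1 and ORA47), 0 of the 7 in arf7 and 0 of the 2 between the Mock libraries, and at 0.4 it kept none of the list.

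**Figure D4:**
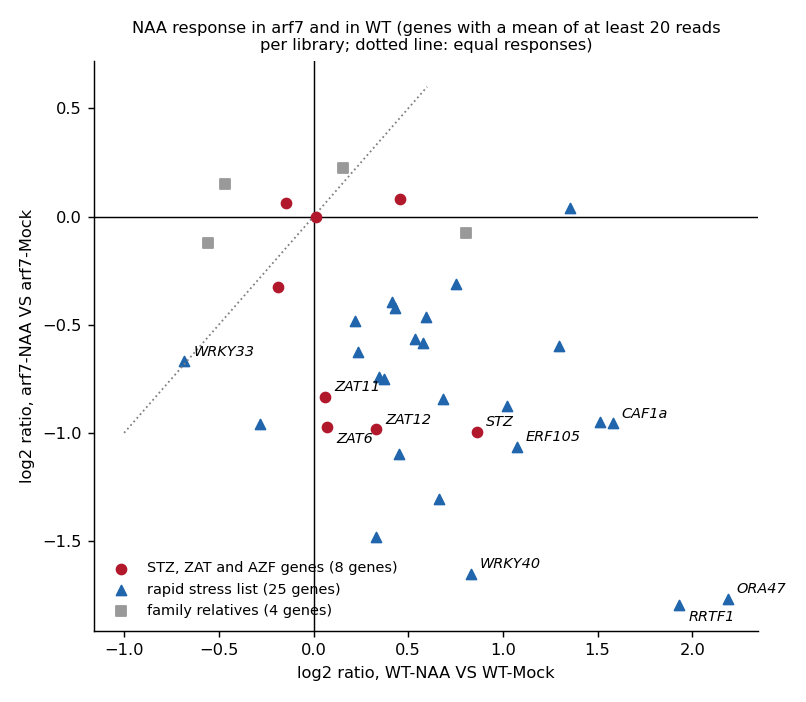
Log2 NAA ratio in arf7 (y axis) and in WT (x axis) for the zinc finger genes (circles), the rapid stress list (triangles) and further C2H2 genes (squares) with a mean of at least 20 reads per library. Points below the dotted line have a lower ratio in arf7; STZ lies at -0.99 in arf7 and 0.86 in WT, and WRKY33 lies on the line.

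Further C2H2 zinc finger genes were 16 in all, and 13 of the 16 had reads. Most were weakly expressed, but AT5G03510, AT3G46080 and AT2G28710 had means of 13.5, 7.25 and 7.07 RPKM, within the moderate tier above. None of the 13 was called in any comparison, where between 0.776% and 1.4% of all genes were. None of the 11 that could be tested differed in its NAA response, where 9.81% of all genes did. The 2 with the highest mean RPKM were AT5G03510, with 117 reads in arf7-NAA, 103 in arf7-Mock, 108 in WT-NAA and 99 in WT-Mock, and AT3G46080, with 27 reads in arf7-NAA, 25 in arf7-Mock, 22 in WT-NAA and 31 in WT-Mock.

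Of 16 cold and dehydration genes, among them targets of the CBF pathway, 14 had reads. None was called in any comparison, where between 0.776% and 1.4% of all genes were. Their NAA response was lower in arf7 for 1 gene and higher for 4 of the 11 tested, where 5.01% of all genes had a lower one and 4.8% a higher one. COR47, a dehydrin, had 10642 reads in arf7-NAA, 13520 in arf7-Mock, 10786 in WT-NAA and 11639 in WT-Mock, a difference of -0.22. LTI30, another dehydrin, had 1682 reads in arf7-NAA, 2179 in arf7-Mock, 1737 in WT-NAA and 2666 in WT-Mock and a difference of 0.26. These 2 had the highest mean RPKM of the list.

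Of 11 genes of oxidative stress, 10 had reads. RBOHD, an NADPH oxidase that makes superoxide, was called lower in WT-NAA, with 457 reads against 978 in WT-Mock and a log2 ratio of -1.07 (-1.23 to -0.91), where 0.668% of all genes tested were called lower, a call that edgeR's exact test did not keep at an assumed spread of 0.2. It had 520 reads in arf7-NAA and 897 in arf7-Mock, and its response difference of 0.32 had an adjusted p of 0.0515 by the exact test. As counted, the superoxide dismutases CSD2, with between 977 and 1265 reads, and FSD1, with between 296 and 446, had the highest mean RPKM. Neither was called in a comparison. The ranking is uncertain, because reads were counted where unique to a model and genes with overlapping models can lose reads. The NAA response was higher in arf7 for 2 of the 10, against 4.8% of all genes. They were FSD1 with a difference of 0.57 (adjusted p = 0.0033 by the exact test) and the catalase gene CAT1 with 0.49 (adjusted p = 0.0031 by the exact test), which was named for this difference. Among 7 genes of stress signalling upstream of the zinc fingers, mitogen-activated protein kinases and heat shock factors, none was called and none differed in its NAA response. Over all genes, between 0.776% and 1.4% were called in a comparison and 9.81% differed in response, so none of 7 says little about this list. MPK6 had between 1505 and 1686 reads. MPK3 had 1061 reads in arf7-NAA, 1260 in arf7-Mock, 1496 in WT-NAA and 1839 in WT-Mock.

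The 7 corepressors through which EAR proteins act were not called in any comparison either, where between 0.776% and 1.4% of all genes were. Reads were counted where unique to a model, so genes with overlapping models can lose reads and a ranking by RPKM is uncertain. As counted, TPR2 had by far the highest RPKM of the 7. It had 1115 reads in arf7-NAA, 1310 in arf7-Mock, 1273 in WT-NAA and 1247 in WT-Mock. Its response difference of -0.25 had an adjusted p of 0.0278 by the exact test, the only one of the 7 under 0.05, where 9.81% of all genes were. SAP18, next in RPKM, had 58 reads in arf7-NAA, 52 in arf7-Mock, 43 in WT-NAA and 63 in WT-Mock.

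The genes most like the median profile of the 8 zinc finger genes with at least 20 reads over the libraries were AT5G02420, AT1G63520, AT1G29380, PID2, AT5G03285, MKK9, AT3G25590 and AT5G46100. Likeness was the root mean square difference over the 4 libraries of the centred log2(RPKM + 1) values, and it lay between 0.029 and 0.037 for these 8 of 13934 candidates with at least 100 reads. In arf7-NAA the centred median was -0.39. STZ, ZAT6, ZAT11 and ZAT12 lay below it, between -0.82 and -0.59, and ZAT5, AZF1, AZF2 and AZF3 above it, between -0.20 and 0.12. The median is thus the profile of no single member. MKK9, a kinase of the rapid stress list, had 208 reads in arf7-NAA, 299 in arf7-Mock, 350 in WT-NAA and 307 in WT-Mock. Most of the others had few reads, as AT5G46100 with 17 reads in arf7-NAA, 28 in arf7-Mock, 34 in WT-NAA and 29 in WT-Mock, and 4 libraries give little to rank profiles by.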

How the data were processed

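Root RNA was sequenced in 4 libraries, 1 per condition, and the labels gave the condition of each. For each transcript model and library, the authors deposited the count of uniquely assigned reads, the RPKM and the percent of its length that reads covered. The aligner and the genome build were not given in the sources used here. Recomputed RPKM equalled the deposited ones. A further 4 deposited tables are the authors' filtered comparisons with log2 ratios, p-values and false discovery rates. These were not used, nor were their 16 columns of single samples.

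Counts were summed over the models of a locus, which 3386 of 23425 genes had more than 1 of. Reads of related zinc finger genes were kept apart only as far as unique assignment does. Each gene's reads in 2 libraries were set against the library totals with an exact binomial test, two-sided, for every gene with reads in either library of a comparison, a count of 0 was set to 3 in ratios, and intervals are exact Clopper-Pearson intervals, which cover counting error only. The difference between the NAA responses was tested with the exact conditional (noncentral hypergeometric) test. P-values were adjusted by Benjamini-Hochberg over all genes. Python 3.11.15, NumPy 2.4.6, SciPy 1.17.1, pandas 2.3.3 and Matplotlib 3.10.9 were used. Both tests were tried on simulated Poisson counts, which hold counting error only. That trial cannot show how the tests behave where biological replicates vary. Alternatives were TMM scaling (edgeR 4.0.16), size factors of DESeq2 1.42.0, 1 RPKM added as a pseudocount or 0.1 RPKM for list medians, a minimum of 1 RPKM, an adjusted p under 0.001 in place of P, edgeR tests that assume a biological coefficient of variation (0.2 or 0.4), and the model with the most reads in place of the sum.

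The members and lists were chosen with earlier results of these data known. Named were all 10 members, and from each other list up to 4 called genes with the most reads and the 2 with the highest mean RPKM. The rule for like genes was the 8 nearest to the median profile. ZAT5 (AT2G28200) and ZAT18 (AT3G53600) are names given with the list of members and not by the tables or by RefSeq. Upstream windows came from RefSeq on TAIR10.1. The coding span lay within the listed models for 95.4% of 22060 genes and for all 10 members. The planned comparison of protein motifs was not run.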

Additional observations from a re-analysis of the deposited data

Results flagged for a closer look

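The NAA responses of STZ, ZAT6, ZAT11 and ZAT12 differed between arf7 and WT by the exact conditional test over all genes, with the response in arf7 minus that in WT at -1.86 on the log2 scale for STZ, -1.04 for ZAT6, -0.89 for ZAT11 and -1.31 for ZAT12. For STZ the 2 responses had opposite directions, -0.99 in arf7 and 0.86 in WT. For ZAT12 they were -0.98 in arf7 and 0.33 in WT, for ZAT6 -0.97 in arf7 and 0.07 in WT, and for ZAT11 -0.83 in arf7 and 0.06 in WT. Each response rests on 1 library of each kind.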

How the results depend on the processing

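No paired analysis was possible because each condition had 1 library. With TMM or DESeq2 size factors, an adjusted p under 0.001 or a minimum of 1 RPKM, the same 3 genes were called in arf7-NAA VS WT-NAA (STZ, ZAT6 and ZAT11), and with TMM, DESeq2 size factors or the most abundant model the same 4 differed in response. A pseudocount of 1 RPKM ended the calls of ZAT11 (-0.99) and ATL2 (-0.98) in arf7-NAA VS WT-NAA and of CAF1b (0.99) in WT-NAA VS WT-Mock. Assuming a biological coefficient of variation, 0.2 or 0.4, left 0 of the 10 genes called in arf7-NAA VS WT-NAA by edgeR's exact test, 96 and 17 of all genes in place of 314 (27 and 2 in place of 244 between the WT libraries, 46 and 8 in place of 175 between the arf7 libraries, 45 and 1 in place of 235 between the Mock libraries), ended 26 and 33 calls of single genes, the list genes included, and left 0 of the 10 with a different response by edgeR's likelihood ratio test, a setting added after seeing the data, with 36 and 0 of all genes in place of 1944. AZF2, never called, turned its sign at ratios near 0: to -0.0472 in WT-NAA VS WT-Mock and 0.0653 in the response difference with its most abundant model, and in arf7-NAA VS arf7-Mock to 0.0195 with TMM, 0.0207 with DESeq2 size factors and 0.0182 with that model. A pseudocount of 0.1 RPKM moved the medians of lists with many genes of few reads. They became -0.43 for the further C2H2 genes in WT-NAA VS WT-Mock and 0.50 for the corepressors in arf7-NAA VS WT-NAA. For 8 SAUR genes they became -1.50 in WT-NAA VS WT-Mock, -0.80 in arf7-NAA VS WT-NAA and -1.21 between the arf7 libraries. Depth limits ZAT7 and ZAT18, and for AZF3 a response difference as large as that of ZAT6 was not detectable at this depth.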

Other observations

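SAUR61 to SAUR68, small auxin-induced growth genes of which some are known targets of AZF1 and AZF2, had almost no reads. Only uniquely assigned reads were counted, so reads shared with related genes would be missing and their true level is uncertain. Only 4 of the 8 genes had reads, none of them more than 4 in a library, too few to compare the libraries.

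The genes nearest to the profile of STZ alone were looked up after its values were seen. They were MYB122, AT3G10930, CAF1b, ERF13, ERF105, AT3G03280, AT1G32920 and SZF1, with root mean square differences between 0.060 and 0.150. AT3G10930 had 100 reads in arf7-NAA, 187 in arf7-Mock, 300 in WT-NAA and 160 in WT-Mock, and AT1G32920 had 444 reads in arf7-NAA, 814 in arf7-Mock, 1052 in WT-NAA and 728 in WT-Mock. CAF1b, ERF105 and SZF1 are also on the rapid stress list.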
